A study of Mus musculus with 8 samples.

Results

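The genes described here are *Gad1*, *Gad2*, *Slc32a1*, *Slc6a11* and *Abat*, 5 of the 45706 genes in the deposited expression files. They were taken by gene symbol from the pathway that makes, packages, takes up and breaks down the inhibitory transmitter GABA, and each symbol matched 1 row. Ribosome-bound mRNA was sequenced from parvalbumin-expressing (PV+) interneurons of mouse primary somatosensory cortex, to ask how these inhibitory neurons respond to a lasting rise in their own activity. The 8 samples were 4 from mice given clozapine-N-oxide (CNO) and 4 from mice given vehicle, and 4 brains were pooled for each sample.

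All mice of both groups carried PvalbFlp/+;Neurod6Cre/+ and had received the virus AAV-flox-fdio-HA-RPL10a, joined by T2A to myc-hM3Dq, on postnatal day 1. This virus, under the hSyn promoter, expresses the HA-tagged ribosomal protein RPL10a together with hM3Dq, a designed receptor through which CNO excites the cell. Flp recombinase from the Pvalb locus switches the construct on, and Cre recombinase from the Neurod6 locus removes it from pyramidal cells. CNO at 1 mg/kg, or vehicle, was given in 5 injections over about 48 h to mice between postnatal days 42 and 70. Both groups thus carried the virus and differed, by their labels, in CNO, and neither uninfected tissue nor input RNA was analysed here. The virus reached few PV+ cells, so each value describes the infected cells and whatever RNA came down with them.

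GABA is made from glutamate by the glutamate decarboxylases GAD67, encoded by *Gad1*, and GAD65, encoded by *Gad2*. The vesicular transporter VGAT, encoded by *Slc32a1*, loads it into synaptic vesicles using the proton gradient of the vesicle. After release it is taken up by plasma membrane transporters, among them GAT3, encoded by *Slc6a11* and known mainly from astrocytes, and it is degraded by GABA transaminase, encoded by *Abat*. Fast-spiking PV+ interneurons use this pathway to release GABA at high rates onto the somata of their targets.

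The libraries held between 44064161 and 49413273 estimated counts each. With CNO, 17495 genes were tested and 0, a share of 0%, met the calling rule (adjusted p under 0.05 by edgeR's quasi-likelihood test with Benjamini-Hochberg adjustment, over 1.5-fold, mean above 1 in TPM, the length-scaled share of transcripts). An unadjusted p under 0.05 was reached by 252 genes in the direction of CNO (1.44%) and 464 in that of vehicle (2.65%). DESeq2 called 10 genes and edgeR's robust likelihood ratio test called 12, none of them a member in either. The labelled cell type was checked on 10 PV interneuron markers, all of which were detected, *Pvalb* at a mean of 907 TPM. Vehicle replicate 1 stood apart: its summed PV marker TPM was 704, against 1834 to 1989 in the other vehicle samples and 1554 to 2214 with CNO. The values of the members and of the gene lists are given with and without it.

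With CNO, the transcripts for GABA synthesis, vesicular loading and degradation had higher mean levels, by 0.32 to 0.63 on the log2 scale, and that of the transporter *Slc6a11* had a lower one, but none of the 5 differences passed the test over all genes. The adjusted p was 0.817 for each of them (edgeR's quasi-likelihood test, Benjamini-Hochberg adjustment). Members called numbered 0 of 5, against 0% of all genes tested, and 1 of 5, *Gad2*, had an unadjusted p under 0.05 with a higher level, against 1.44% of all genes. Lower levels at that threshold were found in 0 of 5 members, against 2.65%. The median log2 fold change over the 5 members was 0.52, and over all genes tested it was 0.00. These medians were 0.29 and -0.0042 without vehicle replicate 1.

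The stretches before the starts of 4 members are shown because *Gad1*, *Gad2* and *Slc32a1* were all lowest in vehicle replicate 1 and highest in CNO replicate 4, and *Slc6a11* was not. *Abat* shared that order, and its sequence is not shown. The stretches are from RefSeq (GRCm38.p6, plus strand, 5′ to 3′) and end at the RefSeq start. Where an exon of the gene in GENCODE M21 came sooner, they end before that exon. GENCODE starts *Gad1* further upstream, at chr2:70553072, so the stretch shown for it lies within the annotated gene. Capitals mark TCGTG or its complement CACGA, the core of the site of the activity-regulated factor NPAS4, and TGACG or CGTCA, the short form of the cyclic AMP response element (CRE).
Gad1, chr2:70561879-70562041: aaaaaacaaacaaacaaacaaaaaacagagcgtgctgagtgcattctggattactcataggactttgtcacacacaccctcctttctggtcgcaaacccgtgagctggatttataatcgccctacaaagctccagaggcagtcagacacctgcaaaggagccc
Gad2, chr2:22622077-22622204: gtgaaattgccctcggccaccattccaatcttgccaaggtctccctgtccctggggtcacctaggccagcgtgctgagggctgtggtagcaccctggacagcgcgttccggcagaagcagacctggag
Slc32a1, chr2:158610508-158610757: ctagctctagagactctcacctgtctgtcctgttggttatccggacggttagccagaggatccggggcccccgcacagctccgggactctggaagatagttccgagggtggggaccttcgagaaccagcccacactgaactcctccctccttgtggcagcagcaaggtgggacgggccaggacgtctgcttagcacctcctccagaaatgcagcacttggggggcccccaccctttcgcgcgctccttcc
Slc6a11, chr6:114130991-114131240: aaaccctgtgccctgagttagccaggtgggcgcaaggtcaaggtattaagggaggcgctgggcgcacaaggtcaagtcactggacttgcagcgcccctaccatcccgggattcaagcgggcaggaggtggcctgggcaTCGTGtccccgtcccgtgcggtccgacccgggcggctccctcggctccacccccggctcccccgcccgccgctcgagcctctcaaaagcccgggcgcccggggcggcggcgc

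Motifs were searched on both strands over the whole 250 bases before each RefSeq start. The matches for *Gad1* and *Gad2* fall in bases that GENCODE places in an exon of the gene and that are not printed. TCGTG was found in *Gad1* at -48, in *Gad2* (as CACGA) at -60 and in *Slc6a11* at -112, and in 13.6% of 27025 promoters of the same length. The short CRE form TGACG was found in *Gad2* (as CGTCA) at -33, and in 17.9% of promoters. The AP-1 site TGANTCA, in 6.87% of promoters, and the EGR core GCGTGGG, in 4.2%, were in none of the 4, and *Slc32a1* held none of the motifs searched. GC content over the 250 bases was 58% for *Gad1*, 64% for *Gad2*, 62.4% for *Slc32a1* and 71.2% for *Slc6a11*.

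*Gad1*, the synthesizing enzyme spread through the cell body and axon, was the most abundant member by TPM and ranked 42 among all genes by mean TPM. It lies at chr2:70553072-70602014 on the plus strand (GRCm38), with 8 annotated transcripts. Its level was 1572, 1052, 1288 and 1817 TPM in CNO replicates 1 to 4, and 509, 1126, 1240 and 1215 TPM in vehicle replicates 1 to 4. Of the CNO samples, 3 of 4 lay above the highest vehicle sample and CNO replicate 2 lay within the vehicle range, so the groups overlapped. The means were 1432 ± 333 TPM with CNO and 1023 ± 346 TPM with vehicle (SD, n = 4 each). The log2 fold change was 0.57 with a standard error of 0.30 and a 95% confidence interval from -0.08 to 1.23, and edgeR's unadjusted p was 0.0797. A two-sided exact permutation test of log2 CPM (counts scaled to a common library size) gave p = 0.171, where 0.0286 is the smallest that 4 against 4 allows.

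*Gad2*, the enzyme concentrated at nerve terminals, was present at a median of 11.5 times less TPM than *Gad1*. It lies at chr2:22622205-22693874 on the plus strand. Its levels were 126, 98.1, 114 and 152 TPM with CNO and 61.3, 98.0, 104 and 106 TPM with vehicle, in replicate order. The order of samples was much that of *Gad1*: CNO replicate 4 was highest, vehicle replicate 1 lowest, and 3 of 4 CNO samples lay above every vehicle sample. The means were 123 ± 22.8 and 92.3 ± 21.0 TPM (SD, n = 4 each). *Gad2* had the smallest unadjusted p of the members, 0.0334 by edgeR's quasi-likelihood test, for a log2 fold change of 0.52 (SE 0.21, 95% confidence interval 0.05 to 0.99), while the exact permutation test gave p = 0.0857. The p-values here measure the spread between pools of brains.

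*Slc32a1*, the vesicular GABA transporter, was the least even of the members. It is a short gene with 1 annotated transcript, at chr2:158610767-158615748 on the plus strand. It was measured at 32.5, 17.5, 29.8 and 40.9 TPM with CNO, and at 4.82, 22.8, 27.7 and 26.2 TPM with vehicle. Vehicle replicate 1 was far below all other samples, which ranged from 17.5 to 40.9 TPM, and CNO replicate 2 was the second lowest. The means were 30.1 ± 9.69 and 20.4 ± 10.6 TPM (SD, n = 4 each). The log2 fold change of 0.63 was the highest of the members and also the least precise, with a standard error of 0.45 and a 95% confidence interval from -0.36 to 1.62. Its unadjusted p was 0.192 by edgeR's test and 0.286 by the exact permutation test. The counts behind it, 240 to 2507 per sample, put the counting error well below the spread between samples.

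*Abat*, the mitochondrial enzyme that degrades GABA, ranked the 8 samples by TPM exactly as *Gad1* and *Slc32a1* did, with a smaller range. It lies at chr16:8513429-8621568 on the plus strand. Levels were 240 (replicate 1), 191 (2), 232 (3) and 277 TPM (4) with CNO and 154, 203, 223 and 215 TPM with vehicle. Again 3 of 4 CNO samples were above the highest vehicle sample, and CNO replicate 2 was below all vehicle samples but replicate 1. Means were 235 ± 35.3 and 199 ± 31.01 TPM (SD, n = 4 each), with a log2 fold change of 0.32 (SE 0.18, 95% confidence interval -0.08 to 0.71), edgeR's unadjusted p of 0.108 and an exact permutation p of 0.229.

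*Slc6a11*, the GABA transporter GAT3, was the least abundant member and the one with a negative difference. It lies at chr6:114131241-114249952 on the plus strand. Its levels were 5.43, 6.70, 7.87 and 5.99 TPM with CNO and 7.29, 7.75, 7.07 and 8.04 TPM with vehicle. By TPM, no CNO sample lay above the highest vehicle sample, 3 of 4 were below the lowest, and CNO replicate 3 was inside the vehicle range. On the CPM scale that was tested, CNO replicate 3, at 14.61, was instead above the highest vehicle sample, at 14.04. Means were 6.50 ± 1.05 and 7.54 ± 0.438 TPM (SD, n = 4 each). The log2 fold change was -0.15 (SE 0.13, 95% confidence interval -0.42 to 0.13), with an unadjusted p of 0.268 by edgeR's test and 0.257 by the exact permutation test. Each library held 476 to 696 counts of it.

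**Figure D1:**
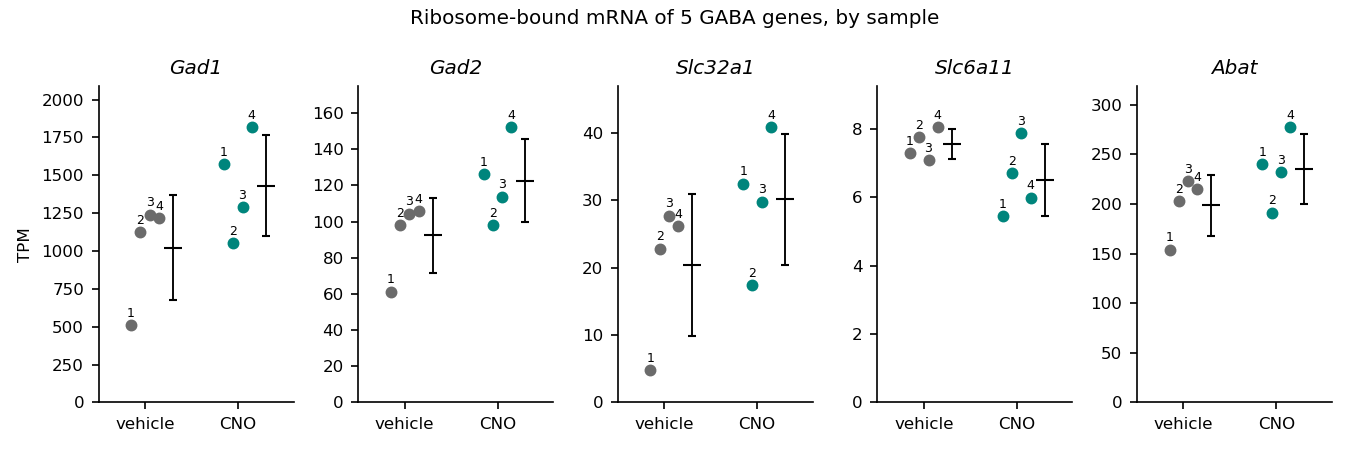
TPM of each member (vertical axes, linear from 0, one scale per panel) in the 4 vehicle (grey) and 4 CNO (green) samples; numbers are replicates, and the bar and whiskers give mean ± SD. Vehicle replicate 1 is lowest for *Gad1*, *Gad2*, *Slc32a1* and *Abat* but not for *Slc6a11*, and in those 4 genes CNO replicate 2 is the lowest CNO sample.

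A full separation, with all CNO samples above all vehicle samples, was found for 0 of 5 members, against 0.789% of genes tested, and the reverse for 0 of 5, against 1.63%. For *Gad1*, *Gad2*, *Slc32a1* and *Abat* it was CNO replicate 2 that closed the gap. Without vehicle replicate 1, the log2 fold changes were 0.33 for *Gad1*, 0.34 for *Gad2*, 0.29 for *Slc32a1*, 0.18 for *Abat* and -0.19 for *Slc6a11*, so those of *Gad1*, *Gad2*, *Slc32a1* and *Abat* dropped by more than 1.5 times.

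**Figure D2:**
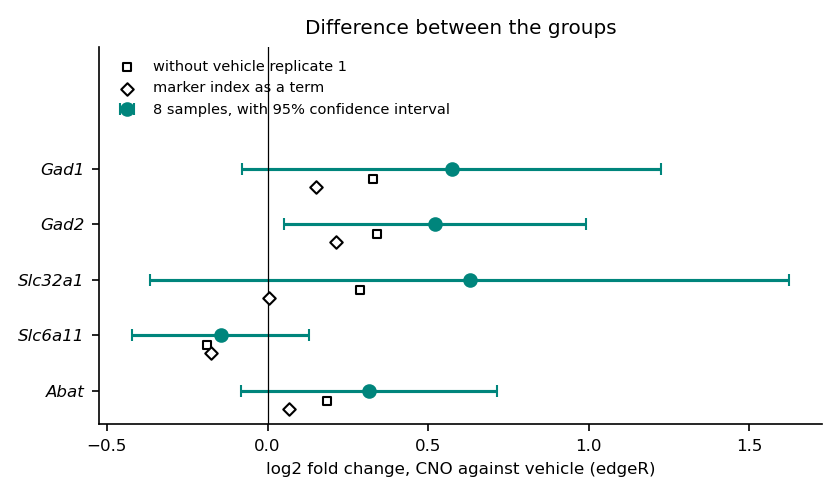
Log2 fold change of each member, CNO against vehicle (horizontal axis, edgeR), with its 95% confidence interval over 8 samples (green), and the same without vehicle replicate 1 (squares) and with the marker index as a term (diamonds). The interval of *Gad2*, 0.05 to 0.99, lies above 0, the other 4 include it, and for *Gad1*, *Gad2*, *Slc32a1* and *Abat* both other estimates are nearer to 0.

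The size of the drop in vehicle replicate 1 differed between members. On the CPM scale it lay below the mean of the other 3 vehicle samples by 5.65-fold for *Slc32a1*, 2.54-fold for *Gad1*, 1.81-fold for *Gad2*, 1.498-fold for *Abat* and 1.12-fold for *Slc6a11*. For *Slc32a1*, 18 of 15173 genes with a mean above 1 TPM had a deeper drop in that sample. None of the 10 PV interneuron markers did: theirs ran from 1.85-fold for the receptor gene *Erbb4* to 3.95-fold for the muscle and interneuron cytochrome oxidase gene *Cox6a2*. Of the enzymes, *Gad1* dropped within the range of the markers, and *Gad2* and *Abat* dropped less than any of them.

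The PV interneuron markers had positive log2 fold changes in 10 of 10 cases (median 0.39), and 0 of 10 had an unadjusted p under 0.05 by edgeR's test. Leaving out vehicle replicate 1, 8 of 10 were positive and the median was 0.16. In bulk RNA, fewer cells of a type, less RNA per cell and more RNA from other cells coming down with it cannot be told apart. The level of *Gad1*, *Gad2*, *Slc32a1* and *Abat* moved with a marker index, the mean log2 CPM of the PV markers minus that of 10 pyramidal cell markers. The index was -0.57 in vehicle replicate 1 and 0.55 in CNO replicate 2, the lowest values, and 1.63 in CNO replicate 4, the highest. With the index as a term in edgeR's model, the log2 fold changes were 0.15 for *Gad1*, 0.21 for *Gad2*, 0.01 for *Slc32a1*, 0.07 for *Abat* and -0.18 for *Slc6a11*. Its part in the differences was not tested beyond this fit.

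**Figure D3:**
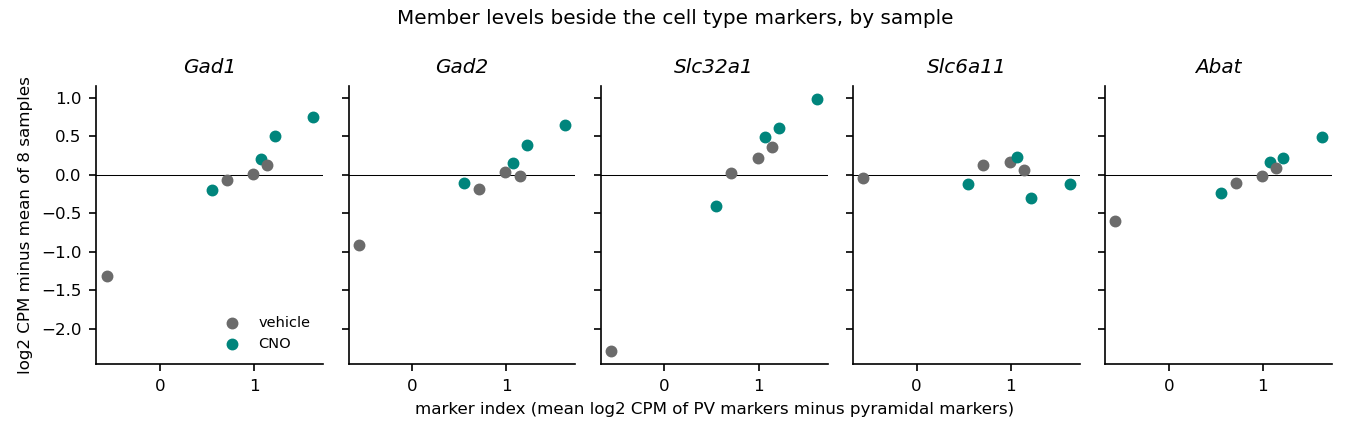
Log2 CPM of each member minus its mean over the 8 samples (vertical axis, shared) against the marker index (horizontal axis, log2 units), vehicle in grey and CNO in green. *Gad1*, *Gad2*, *Slc32a1* and *Abat* are lowest at the index of -0.57 (vehicle replicate 1) and highest at 1.63 (CNO replicate 4), and *Slc6a11* shows no such order.

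Each member was then set against the mean log2 CPM of the 10 PV markers in the same sample, a comparison chosen after the data had been seen. Relative to the markers, *Gad1* stood at 4.23, 4.10, 4.06 and 4.28 log2 units with CNO and at 3.94, 4.02, 3.95 and 3.94 with vehicle, so that the groups no longer overlapped. The difference was 0.20 log2 units, and the exact permutation p of 0.0286 was the smallest possible. Adjusted over all genes by Benjamini-Hochberg it was 0.619. With that smallest p, the adjusted value could fall under 0.05 only if most genes reached it too, so it decides nothing here. All CNO samples lay above all vehicle samples on this scale for 1 of 5 members, against 0.149% of genes tested, and below for 0 of 5, against 1.14%. These shares depend on the scale, since the marker mean was higher with CNO and subtracting it lowers the difference of every gene. In CPM, the log2 fold changes of the markers themselves ran from 0.05 to 0.57, beside 0.57 for *Gad1*. Whether single markers also stood above their mean in this way was not tested. Without vehicle replicate 1 the difference for *Gad1* was 0.20 as well (exact permutation p = 0.0571, the smallest that 4 against 3 allows).

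The other members overlapped on the relative scale. *Gad2* differed by 0.11 log2 units (exact permutation p = 0.4), with vehicle replicate 1 the highest of all 8 samples at 1.54. *Slc32a1* differed by 0.42 (p = 0.286 by the exact permutation test), with vehicle replicate 1 the lowest at -2.89. *Abat*, at -0.11 (exact permutation p = 0.971), changed sign against its CPM difference, and *Slc6a11* differed by -0.58 (exact permutation p = 0.171). Without vehicle replicate 1, the differences were 0.23 for *Gad2*, 0.12 for *Slc32a1*, 0.07 for *Abat* and -0.30 for *Slc6a11*. In vehicle replicate 1, then, *Gad2*, *Abat* and *Slc6a11* were higher per PV marker mRNA than in any other sample, *Slc32a1* was lower, and *Gad1*, at 3.94, was near the other vehicle samples.

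**Figure D4:**
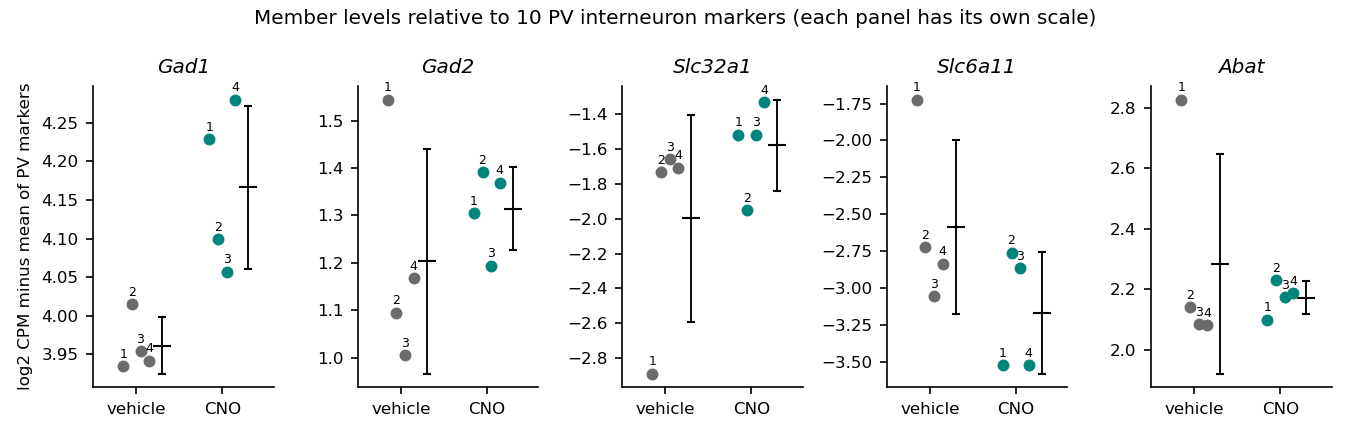
Log2 CPM of each member minus the average of the 10 PV markers in the same sample (vertical axes, each with its own scale), for vehicle (grey) and CNO (green), with replicate numbers and mean ± SD. For *Gad1* every CNO sample is above every vehicle sample, while for *Gad2*, *Abat* and *Slc6a11* vehicle replicate 1 is the highest sample.

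Per length, the levels of the members kept one order across samples. *Gad1* exceeded *Abat* in 8 of 8 samples, by a median of 5.56 times in TPM, *Abat* exceeded *Gad2* in 8 of 8, by 2.04 times, and *Gad2* exceeded *Slc32a1* in 8 of 8, by 3.96 times. *Slc32a1* exceeded *Slc6a11* in 7 of 8 samples, by a median of 3.53 times, and the order was reversed in vehicle replicate 1, where the ratio was 0.661. The TPM ranges of neighbours in this order did not overlap, except those of *Slc32a1* and *Slc6a11*, through that library. For *Abat* and *Gad2* the gap was small: the lowest *Abat* value was 153.9 TPM and the highest *Gad2* value 152.1 TPM.

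The split of the synthesizing enzymes was narrow. *Gad1* made up between 89.3% and 92.6% of the summed *Gad1* and *Gad2* TPM, and the ratio of *Gad1* to *Gad2* ran from 8.31 in vehicle replicate 1 to 12.4 in CNO replicate 1. In log2 units (TPM with 1 added) the ratio was 0.12 higher with CNO (exact permutation p = 0.543). The ratio of the vesicular transporter to the enzymes was 0.18 higher for *Slc32a1* to *Gad1* (exact permutation p = 0.6) and 0.30 higher for *Slc32a1* to *Gad2* (exact permutation p = 0.514). Adjusted over these 3 ratios, p was 0.6 for each by the exact permutation test. All 3 differences turned slightly negative without vehicle replicate 1, in which *Gad1* exceeded *Slc32a1* by 106 times in TPM, against 43.2 to 60.3 times elsewhere.

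Genes that serve the pathway were read from lists. Of 22 genes of glutamate and GABA metabolism and supply, 21 were tested, and *Pdxp* had no row under that symbol in the deposited files. Of the 21, 13 had positive and 8 negative log2 fold changes, the median was 0.10, and 0 were called. An unadjusted p under 0.05 by edgeR's test was found for 1 of 21, higher with CNO, against 1.44% of all genes. All CNO samples lay above all vehicle samples for 1 of 21, against 0.789%. Without vehicle replicate 1, 12 were positive and 9 negative, the median was 0.02, and 0 had an unadjusted p under 0.05 by that test. Among the most abundant were the aspartate aminotransferases *Got1* (655 TPM) and *Got2* (317 TPM) and the mitochondrial glutamate carrier *Slc25a22* (244 TPM), with log2 fold changes of 0.35, 0.29 and 0.08.

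The vesicular proton pump supplies the gradient on which VGAT runs. The 16 genes listed for it here all had positive log2 fold changes, from 0.05 to 0.32, with a median of 0.20 against 0.00 for all genes. However, 0 of these 16 had an unadjusted p under 0.05 by edgeR's test. Of all genes, 50.4% were positive. Without vehicle replicate 1, 15 of the 16 listed pump genes were positive, the median was 0.06 and the highest value 0.14, against 48.6% positive among all genes. The most abundant were *Atp6v0c* (1068 TPM), *Atp6v1g2* (936 TPM), *Atp6v1b2* (743 TPM) and *Atp6v1e1* (733 TPM). The summed TPM of the 16 was lowest in the same samples as *Gad1*. It was 5372 in vehicle replicate 1 and 6678 in CNO replicate 2, against 7231 to 8446 in the other samples. Of the other vesicular transmitter transporters, 5 of 6 were tested, 1 was higher and 4 lower, and 0 had an unadjusted p under 0.05. With vehicle replicate 1 left out it was 2 and 3, with a median of -0.06 in place of -0.08.

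Transcripts of other cells were present beside the members. *Slc17a7*, the vesicular glutamate transporter of cortical pyramidal cells, averaged 433 TPM, more than *Slc32a1* at 25.3 TPM, with a log2 fold change of -0.20. Of 10 pyramidal cell markers 9 were lower with CNO (median log2 fold change -0.13), with summed TPM of 660 to 900 with CNO and 838 to 1033 with vehicle. For 8 astrocyte markers, which bear on *Slc6a11*, 6 were lower (median -0.13, summed TPM 495 to 583 with CNO and 511 to 641 with vehicle). The highest pyramidal and astrocyte sums, 1033 and 641, were those of vehicle replicate 1, the sample lowest in PV markers. The astrocyte sum of vehicle replicate 2 was close to it, at 640. None of the markers in any list was at 0 in all samples, and the part of these cells in the *Slc6a11* difference was not tested.

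The remaining marker lists bear on which other cells gave RNA. Of 8 markers of other interneurons, which also make GABA, 3 were higher and 5 lower, with 2 of 8 at an unadjusted p under 0.05, both lower (*Lamp5* and *Reln*), against 2.65% of all genes. Their summed TPM was 605 to 701 with CNO and 695 to 812 with vehicle. The 6 oligodendrocyte markers were all lower (median -0.23), as were the 5 microglial markers (median -0.19, 1 of 5, *P2ry12*, at an unadjusted p under 0.05), and the 4 endothelial markers were all higher (median 0.34). None of these genes was called. Without vehicle replicate 1, medians were -0.07 for the pyramidal, -0.03 for the astrocyte, -0.10 for the other interneuron, -0.17 for the oligodendrocyte, -0.10 for the microglial and 0.27 for the endothelial markers, and 1 of 8 other interneuron and 0 of 5 microglial markers had an unadjusted p under 0.05.

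**Figure D5:**
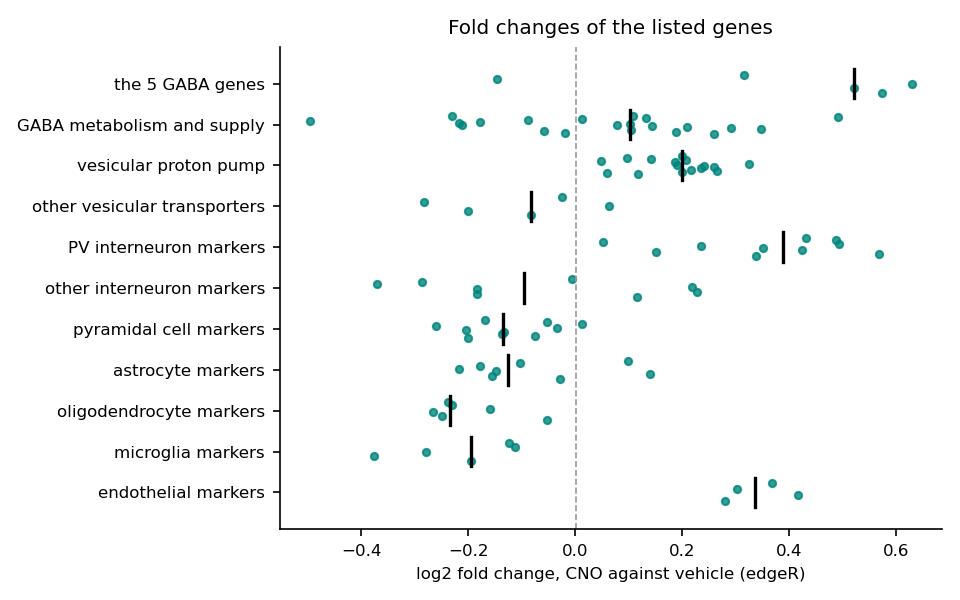
Log2 fold changes, CNO against vehicle (horizontal axis, edgeR), of each tested gene (points) by list, with the list's median (black bar) and the median of all 17495 genes (dashed line). The members have a median of 0.52 and the PV interneuron markers one of 0.39, and the pyramidal, astrocyte, oligodendrocyte and microglial markers lie mostly below 0.

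The genes whose profiles were most like those of the members were found among 15168 other genes with a mean above 1 TPM, by the root mean square difference of log2 CPM centred over the 8 samples. For *Gad1* they were *Nek7* (0.05), *Adssl1* (0.06) and *Btbd11* (0.07), the last a PV interneuron marker, and all 3 were low in vehicle replicate 1. For *Gad2* they were *Fam134b* (0.07), *Kcnab2* (0.07) and *Rbm20* (0.07). *Abat* had the nearest likenesses, *Inpp5f* (0.03), *Ap3s2* (0.04) and *Ppp1r2* (0.04). On this unscaled distance, which grows with a gene's own spread, the nearest to *Slc32a1* were further off: *C130080G10Rik* was at 0.18, *Gm10073* at 0.22 and *Rpl10a-ps1* at 0.23, 3 genes of low abundance. The nearest to *Slc6a11* were *Kif9* (0.05), *Rgs3* (0.07) and *Acvr1* (0.08). Among the members, *Gad2* was closest to *Abat* (0.15) and *Gad1* to *Gad2* (0.17).

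Sequence shared with other genes touched *Slc32a1* most. Of its 31-base words, 24.2% also occur in *Gm14205*, an antisense gene at chr2:158610910-158611820, and without strand information reads of both cannot be told apart. *Gm14205* was assigned 1.82 to 21.7 counts per sample, 0.237% to 1.48% of those of *Slc32a1*. The antisense gene *Gad1os* and the pseudogene *Gad1-ps* were assigned at most 8 and 28 counts per sample beside at least 27431 for *Gad1*.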

How the data were processed

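Ribosome-bound RNA was isolated through HA-tagged RPL10a, and libraries were made with a SMARTer Ultra Low kit and sequenced paired-end. Per the labels and the study's methods, the authors used FastQC and Trim Galore for quality and trimming, STAR for alignment to GRCm38 (mm10) and Salmon for quantification. The deposited files hold estimated counts per gene and TPM per gene, the latter already divided by length and by sample total. Strandedness is not given in the sources used here.

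Counts were rounded, genes under 10 counts in 4 or more samples were left out, and 17495 of 45706 genes were fitted with edgeR 4.0.16 (TMM scaling, quasi-likelihood test, R 4.3.3), with Benjamini-Hochberg adjustment over all of them. The common biological coefficient of variation was 0.183. A call needed an adjusted p under 0.05, over 1.5-fold and a mean over 1 TPM, the cut-offs of the study. The study used edgeR with robust dispersion estimates, a different fit, and reported differentially expressed genes at these cut-offs. The robust likelihood ratio test run here called 12 genes, fewer than the study reported, and the reason was not tested. Here the lowest adjusted p of all genes was 0.052 by edgeR's quasi-likelihood test. Log2 CPM used a prior count of 2. Exact permutation tests, two-sided, were used for single values. Confidence intervals are 95%. Fits were tested on simulated data. Alternatives used DESeq2 1.42.0 and limma 3.58.1 (log2 TPM), other scalings, filters, the marker index, the replicate number or replicates 1 and 2 against 3 and 4 as terms, and leaving out each sample. Positions, overlaps and shared 31-base words came from GENCODE M21.

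The members and lists were chosen with earlier results of these data known. All 5 members are named. Of each wider list, genes at an unadjusted p under 0.05 and up to 4 of the highest TPM were named, and, for each member, the 3 genes of nearest profile. Names outside this rule (*Pvalb*, *Erbb4*, *Cox6a2*, *Gm14205*, *Gad1os*, *Gad1-ps*) were chosen after their values were seen, and *Pdxp* is named for having no row. Some genes that this rule would name are not reported here. Replicates are pools of 4 brains.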

Additional observations from a re-analysis of the deposited data

Results flagged for a closer look

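In groups of 4 samples, the gap from the lowest or highest sample to its neighbour, as a share of the group's range, was compared with Dixon's 95% critical value in 16 groups (the 5 members and 3 ratios, by group). It was exceeded 6 times, where chance gives about 0.8, and the groups are not independent. *Gad1* in vehicle replicate 1 (log2 CPM 9.26, others 10.51 to 10.71) had a gap share of 0.861, and *Slc32a1* in the same sample (2.44, others 4.76 to 5.10) one of 0.874. The log2 ratios in that sample gave 0.906 for *Gad1* to *Gad2*, 0.872 for *Slc32a1* to *Gad1* and 0.883 for *Slc32a1* to *Gad2*. In CNO replicate 2, the log2 ratio of *Slc32a1* to *Gad2*, -2.42 against -1.93 to -1.87 in the other CNO samples, gave 0.8999. The PV marker index was lowest in these 2 samples, at -0.57 and 0.55.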

How the results depend on the processing

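Across the members, 99 of 100 alternative fits kept the direction and the side of the threshold, and no member was called in any. The exception was *Abat* relative to the PV markers, at -0.11. On that relative scale the adjusted p could hardly have passed the threshold, whatever the members did. The main adjusted p of each member, 0.817 by edgeR's quasi-likelihood test, lay far from that threshold. The fits share samples, and a kept direction could be close to 0, as for *Slc32a1* at 0.005 with the marker index as a term. Leaving out 1 sample at a time gave 0.33 to 0.72 for *Gad1*, 0.34 to 0.63 for *Gad2*, 0.29 to 0.84 for *Slc32a1*, 0.18 to 0.43 for *Abat* and -0.27 to -0.07 for *Slc6a11*. The lowest of the first 4 came without vehicle replicate 1. For *Slc6a11*, -0.07 came without CNO replicate 1 and -0.27 without CNO replicate 3. The 3 log2 ratios ranged from -0.0024 to 0.17 (*Gad1* to *Gad2*), -0.061 to 0.28 (*Slc32a1* to *Gad1*) and -0.063 to 0.45 (*Slc32a1* to *Gad2*), each negative without vehicle replicate 1. Genes called rose from 0 to 12 (11 higher) with the robust likelihood ratio test, 10 (9 higher) with DESeq2, 4 without a filter on low counts, 3 with replicates 1 and 2 against 3 and 4 as a term, and 0 to 2 on leaving out a sample (2 without CNO replicate 1); the cause was not tested. With library size alone as the scale, the median log2 fold change of all genes was -0.05. Same-numbered samples correlated at 0.03, -0.03, 0.16 and 0.24 in their deviations, and samples of unlike number at -0.40 to 0.43. With 4 samples per group and this spread, the values cannot decide whether the numbers pair the samples. With the replicate block, the log2 fold changes were 0.62 for *Gad1*, 0.54 for *Gad2*, 0.77 for *Slc32a1*, 0.32 for *Abat* and -0.16 for *Slc6a11*, and 0 genes were called. The members had at least 240 counts per sample, and the effect of depth was not tested. List values without vehicle replicate 1 were added after seeing the data.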
